A study of Mus musculus with 2 samples.

Results

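Hox genes are the homeobox genes of 4 chromosomal clusters, Hoxa, Hoxb, Hoxc and Hoxd, and they were taken here by symbol: the word Hox, the letter of the cluster and a paralogue number from 1 to 13. Of the 19938 genes measured, 37 were Hox genes with a probe set of their own. The probe set of Hoxb8 was shared with Hoxb7 and was left out. Expression was measured on microarrays in PDGFRa+ cells, fibroblast-like cells that include adipocyte precursors, taken by cell sorting out of the stromal vascular fraction of inguinal white fat, which is what remains of the tissue once the adipocytes have been removed. The mice were females of 6 weeks, either floxed for Sox9 or of the Sox9 PreASKO genotype, and both groups had been given doxycycline at postnatal day 1. The labels do not name the promoter that drives recombination. Each group was 1 array of RNA pooled from 3 mice, so no difference below has a replicate, an error or a test.

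Hox genes encode transcription factors that tell cells where along the body axis they lie. Within a cluster the genes are arranged in the order in which they are used along the axis, with low paralogue numbers towards the head and high ones towards the tail and the tips of the limbs, and genes with the same number in different clusters are paralogues that descend from a common ancestor. Adult fibroblasts and adipocyte precursors keep a Hox pattern from the embryo that differs between body sites and fat depots. HOX proteins bind DNA together with the TALE cofactors of the MEIS and PBX families, and Polycomb and trithorax proteins keep each gene silent or active.

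Values are the deposited log2 levels, and every difference is PreASKO minus floxed on that scale. A gene was called above background where its level exceeded 4.64, the 95th percentile of 1015 olfactory receptor genes in the floxed array. These genes are assumed to be off in fat stroma, and their 95th percentile was lower (4.48) in PreASKO. A level below that mark means that the probe set gave no signal over silent genes, not that the RNA was absent. Probe sets differ in how brightly they report, so levels are compared between arrays and with the mark, never between genes. The floxed Sox9 level was 5.25 and the PreASKO level 4.97, a difference of -0.27 with both above background. The sources used here do not say which exons the Sox9 probes cover, so this value does not check the genotype labels. Pdgfra, on which the cells were sorted, was at 9.86 and 9.55, a difference of -0.31. All 10 measured PDGFRa+ stromal markers were above background in both arrays, among them Dpt (11.92 and 11.86) and Dcn (12.21 in both). Macrophage markers were also present and were higher in PreASKO in 13 of 13 genes, with a median difference of 0.47. Of all genes above background, 44.8% were lower in PreASKO. All 7 measured markers of dividing cells were at least 1.5-fold lower in their deposited values, beside 1.98% of all genes.

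Of the 37 Hox genes, 16 were above background in both arrays, which is 43.2% beside 55.2% of all genes. Another, Hoxa7, was above it in the PreASKO array alone, and 20 were below it in both. For paralogues 1 to 3 it was 3 of 7 measured genes, for paralogues 4 to 8 it was 8 of 14, for paralogues 9 and 10 it was 5 of 7, and for paralogues 11 to 13 it was 0 of 9. The highest paralogue number with signal was 10 in Hoxa and Hoxc, 9 in Hoxb and 8 in Hoxd, and the lowest was 1 in Hoxb, 4 in Hoxa and Hoxc and 8 in Hoxd. By the floxed mark of 4.645, used for both arrays, the arrays gave the same set of genes apart from Hoxa7. The mark taken in the same way from the PreASKO array was lower, at 4.480. By that mark Hoxd9 (4.528) and Hoxd11 (4.485) were also above background in PreASKO. In floxed they were below the floxed mark, at 4.640 and 4.597. The genes above background in both arrays were still 16.

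**Figure D1:**
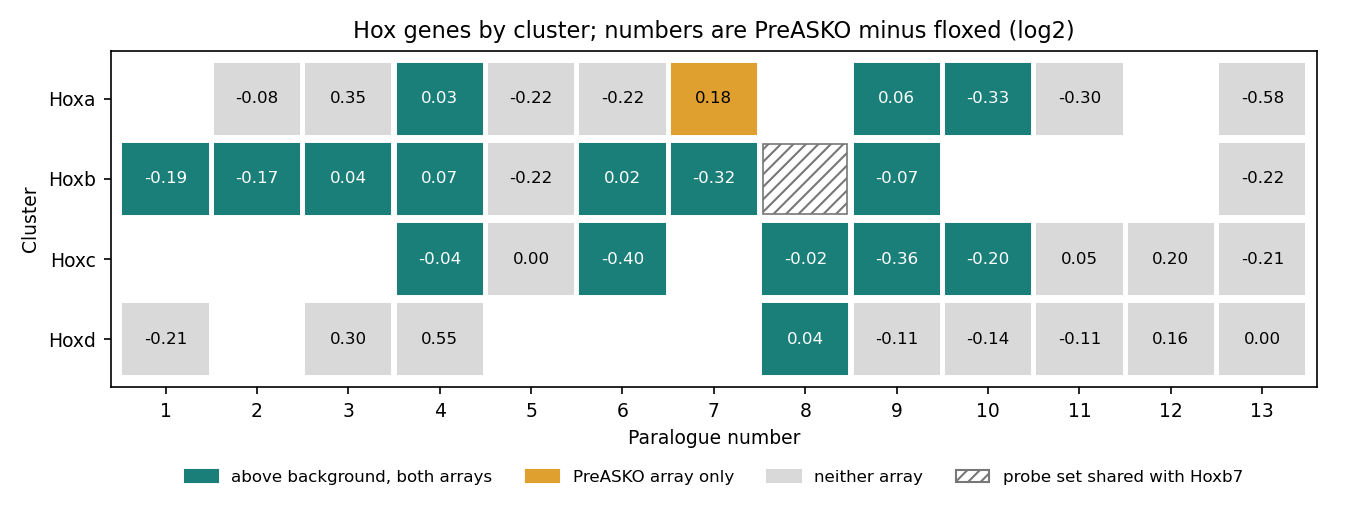
Hox genes by cluster (rows) and paralogue number (columns), coloured by whether the level was above the olfactory receptor background, with the PreASKO minus floxed difference (log2) printed in each cell; white cells hold no gene reported here and the hatched cell has only a probe set shared with Hoxb7. The 16 genes above background in both arrays end at paralogue 10, and none of the 9 measured genes numbered 11 to 13 is among them.

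The clusters differed in how many members gave signal. In Hoxb it was 7 of 9 measured genes, in Hoxc 5 of 9, in Hoxa 3 of 10 and in Hoxd 1 of 9. Of the measured genes from Hoxb1 to Hoxb9, Hoxb5 alone was below the mark (4.62 and 4.39), and Hoxb8 between Hoxb7 and Hoxb9 has no probe set of its own. In Hoxc the run from Hoxc4 to Hoxc10 was broken by Hoxc5 alone, at 3.98 in both arrays. No gene of paralogue 5 gave signal, since Hoxa5, which shapes the lung and the cervicothoracic skeleton and is well known from adipose tissue, was at 4.20 and 3.98. Of paralogue 4, Hoxa4, Hoxb4 and Hoxc4 gave signal and Hoxd4 did not, and of paralogue 9 it was Hoxa9, Hoxb9 and Hoxc9 without Hoxd9.

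The members closest to the mark were Hoxb1 on the inside (4.85 and 4.65), a gene of the developing hindbrain, and Hoxd9 (4.64 and 4.53), Hoxd11 (4.60 and 4.49) and Hoxa7 (4.47 and 4.66) on the outside. Raised to 5.44, the 99th percentile of these receptor genes, the mark left 8 genes: Hoxa4, Hoxa9, Hoxa10, Hoxb3, Hoxc6, Hoxc8, Hoxc9 and Hoxc10. Hoxb then had 1 gene with signal, Hoxc 4 and Hoxa 3, so the order of the clusters depended on the mark. Set instead at 4.21, the 95th percentile of 197 vomeronasal and bitter taste receptor genes, it gave 20 genes, adding Hoxa7, Hoxb5, Hoxd9 and Hoxd11, and Hoxd11 was then the only gene above paralogue 10 with signal.

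No Hox gene differed by 1.5-fold between the genotypes, the limit named by the series, which is 0.585 on the log2 scale: 0 of 37 were higher and 0 of 37 lower by that amount. Over all genes 3.64% passed this limit, 1.66% as higher and 1.98% as lower, and over genes above background in both arrays 2.15% did. The 16 genes with signal ran from -0.40 (Hoxc6) to 0.07 (Hoxb4), with a median of -0.05 beside 0.02 over all 11013 genes above background. All 16 lay within the middle 95% of those genes, which spans -0.43 to 0.49. They were 10 lower and 6 higher in PreASKO, or 62.5% lower beside 44.8% of all genes above background. The size of the differences was one-sided: 7 of the 16 were in the lowest 25% of all differences (below -0.11), and 0 of 16 in the highest 25% (above 0.16). The 6 higher genes reached 0.07 at most, and 7 genes were lower by more than that. The direction of each of the 16 held under quantile normalization and under loess correction. Neither shifted the median of all genes by more than 0.1. Both rescale the same 2 arrays and moved the values little, with Hoxa4 at 0.003 after loess, so they do not stand in for a replicate. Centring and the mean over probe sets leave these values as they are.

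**Figure D2:**
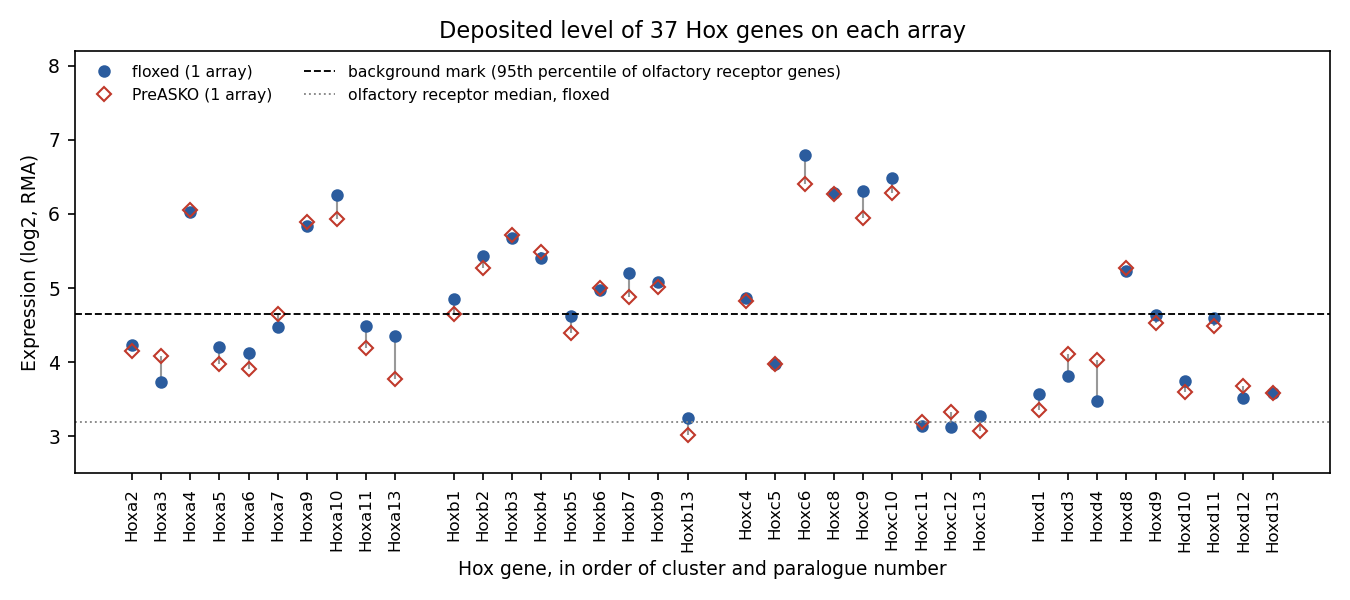
Level of each of 37 Hox genes (log2, RMA) on the floxed array (filled circles) and the PreASKO array (open diamonds), in order of cluster and paralogue number; each point is 1 array of pooled RNA, the dashed line is the background mark of 4.64 and the dotted line the floxed median of the olfactory receptor genes. Hoxc6, Hoxc9, Hoxc10 and Hoxa10 show floxed above PreASKO, while Hoxa4, Hoxa9 and Hoxc8 nearly coincide.

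The Hoxc cluster was lower in PreASKO in all 5 of its genes with signal. Hoxc6, a gene of the thoracic region, was at 6.80 in floxed and 6.40 in PreASKO, a difference of -0.40, or 1.32-fold. Hoxc9, also a thoracic gene and often used as a mark of subcutaneous white fat, was at 6.31 and 5.94, a difference of -0.36. Hoxc10, which acts in the lumbar region and has been described as a suppressor of browning in white fat, was at 6.49 and 6.28, a difference of -0.20. Between these in the cluster, Hoxc8, known as a repressor of brown fat genes, was at 6.28 and 6.26, and Hoxc4 at the front of the cluster was at 4.87 and 4.82. The differences of Hoxc8 and Hoxc4, -0.02 and -0.04, are close to the 0.02 of all genes, so that neighbours in the cluster did not share the size of their difference. Of all genes above background, 3.43% had a more negative difference than Hoxc6 and 4.36% a more negative one than Hoxc9, whereas 41.9% had one below that of Hoxc8.

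In Hoxa the 3 genes with signal differed in direction. Hoxa10, which patterns the lumbar spine and the uterus, was at 6.26 in floxed and 5.93 in PreASKO, a difference of -0.33, or 1.26-fold. Its neighbour Hoxa9, known from blood progenitors and leukaemia, was at 5.84 and 5.89, a difference of 0.06. Hoxa4 was at 6.02 and 6.05, a difference of 0.03. Hoxa10 was thus lower while both other genes of its cluster were level. The remaining Hoxa genes, Hoxa2, Hoxa3, Hoxa5, Hoxa6, Hoxa11 and Hoxa13, stayed below the mark in both arrays.

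In Hoxb the lower genes were Hoxb7 (5.20 and 4.88, a difference of -0.32), Hoxb1 (4.85 and 4.65, -0.19), Hoxb2 (5.44 and 5.27, -0.17) and Hoxb9 (5.09 and 5.02, -0.07). Hoxb7 is a trunk gene and Hoxb9 acts on the ribs, while Hoxb1 and Hoxb2 are best known from the hindbrain. The other genes were nearly level, with Hoxb3 at 5.67 and 5.71, Hoxb4 at 5.41 and 5.48, and Hoxb6 at 4.98 and 4.997. Hoxb4 is a regulator of blood stem cells. The RefSeq gene models of Hoxb3 and Hoxb4 overlap, as do those of Hoxa3 with Hoxa4, Hoxa5 and Hoxa6, of Hoxd3 with Hoxd4 and of Hoxd11 with Hoxd10, so that transcripts of either gene may reach a shared probe. The probe set shared by Hoxb8 and Hoxb7 was below background at 3.71 and 3.40, so its difference of -0.31 is no second measure of Hoxb7. The signal of Hoxb7 rests on its own probe set alone, whose lower value was 0.24 above the mark. In Hoxd the single gene with signal, Hoxd8, was at 5.23 and 5.26.

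**Figure D3:**
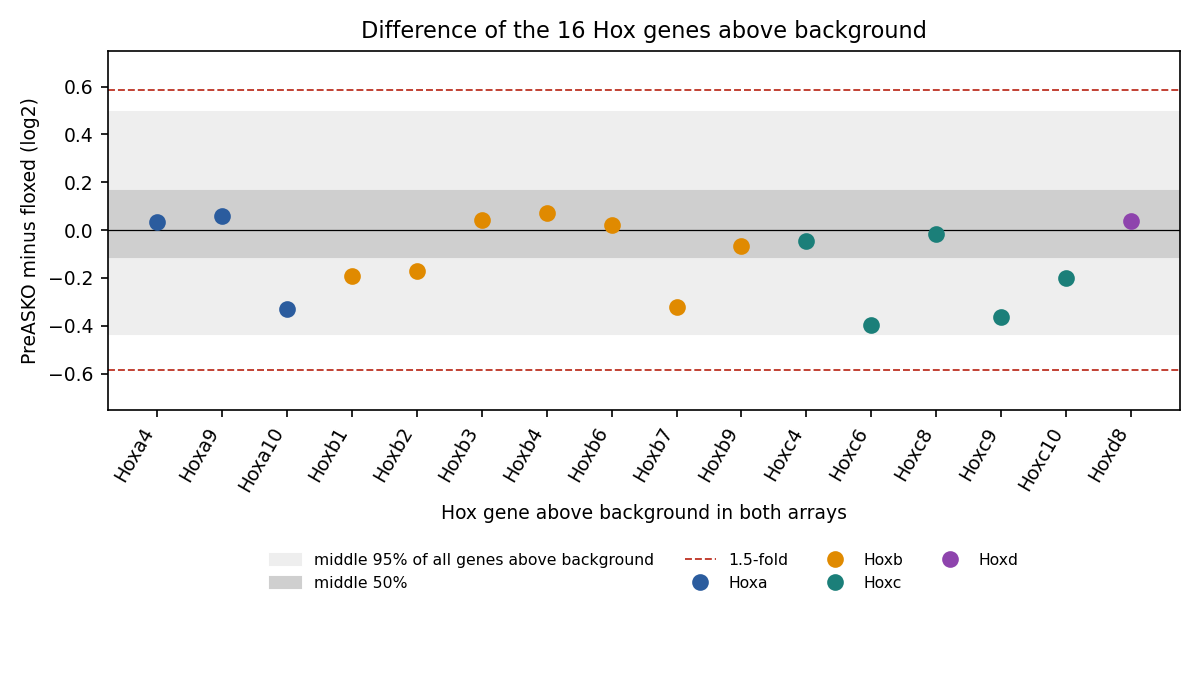
PreASKO minus floxed difference (log2) of the 16 Hox genes above background in both arrays, 1 point per gene, coloured by cluster; the dark and light bands hold the middle 50% and 95% of all 11013 genes above background and the dashed lines mark 1.5-fold. Points lie inside the dark band or below it, down to -0.40 for Hoxc6, and none lies above it.

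By paralogue number, both genes of paralogue 10 with signal were lower, Hoxa10 by 0.33 and Hoxc10 by 0.20 on the log2 scale. The genes of paralogue 9 were not alike, with differences of 0.06 for Hoxa9, -0.07 for Hoxb9 and -0.36 for Hoxc9. Those of paralogue 4 were all close to 0, at 0.03 for Hoxa4, 0.07 for Hoxb4 and -0.04 for Hoxc4. Paralogue 6 was mixed too, with -0.40 for Hoxc6 and 0.02 for Hoxb6. The medians were -0.17 over the 3 genes of paralogues 1 to 3, 0.00115 over the 8 of paralogues 4 to 8 and -0.20 over the 5 of paralogues 9 and 10.

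The 20 genes below background in both arrays lay between 3.02 and 4.64. Their differences ran from -0.58 to 0.55, wider than those of the genes with signal. Of the 20 genes, 12 were lower, 6 higher and 2 equal in PreASKO, with a median of -0.11. The median was -0.03 over all 8142 genes below the mark in both arrays and -0.08 over the olfactory receptor genes. The lower side thus also prevailed in Hox probe sets without signal, where differences cannot be read as changes in RNA. The most negative was Hoxa13 (4.35 and 3.77), a gene of the digits and the urogenital tract, and the most positive Hoxd4 (3.48 and 4.03), a gene of the upper spine. Hoxd4 reached 0.60 after quantile normalization and 0.59 after loess correction and so passed 1.5-fold there, still below background in both arrays. Hoxc5 and Hoxd13 held exactly the same value in both arrays, as did 3.80% of all genes. The posterior genes Hoxb13 (3.25 and 3.02), Hoxc11 (3.14 and 3.19), Hoxc12 (3.13 and 3.33) and Hoxc13 (3.28 and 3.07), the last a gene of hair and nail, lay near the floxed median of the olfactory receptor genes (3.20). The other genes without signal were Hoxd1, Hoxd3, Hoxd10 and Hoxd12, at 3.36 to 4.11.

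Promoters are shown because the family split into genes with and without signal. Among genes with a promoter entry, those with signal had a lower median count of CG dinucleotides. RefSeq promoter entries of assembly GRCm38.p6 were found for 21 of the 37 genes. Of the 16 genes with signal only 6 had one, and Hoxc6, Hoxc8, Hoxc9 and Hoxc10 had none, so most genes with signal are not covered. The 250 bases before the start were read 5′ to 3′ on the gene's strand, with each CG in capitals. The first 3 below had signal in both arrays and the last 3 had none; they were picked after their counts were seen, Hoxd4 as an exception.
Hoxa9, chr6:52227371-52227620, strand -: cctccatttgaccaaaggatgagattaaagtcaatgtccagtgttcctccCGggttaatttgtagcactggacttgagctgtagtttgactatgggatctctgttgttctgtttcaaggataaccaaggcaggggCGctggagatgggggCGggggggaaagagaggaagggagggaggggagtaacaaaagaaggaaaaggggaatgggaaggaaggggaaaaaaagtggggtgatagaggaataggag
Hoxb4, chr11:96318017-96318266, strand +: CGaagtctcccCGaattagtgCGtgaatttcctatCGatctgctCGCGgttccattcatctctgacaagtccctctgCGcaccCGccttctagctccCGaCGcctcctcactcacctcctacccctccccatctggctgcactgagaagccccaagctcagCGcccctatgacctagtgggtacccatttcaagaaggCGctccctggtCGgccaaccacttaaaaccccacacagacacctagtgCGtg
Hoxd8, chr2:74704365-74704614, strand +: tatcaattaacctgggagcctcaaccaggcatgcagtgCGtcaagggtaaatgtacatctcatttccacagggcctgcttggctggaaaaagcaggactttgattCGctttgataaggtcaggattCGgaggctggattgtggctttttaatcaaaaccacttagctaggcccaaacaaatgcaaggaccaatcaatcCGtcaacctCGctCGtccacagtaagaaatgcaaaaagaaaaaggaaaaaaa
Hoxa13, chr6:52260881-52261130, strand -: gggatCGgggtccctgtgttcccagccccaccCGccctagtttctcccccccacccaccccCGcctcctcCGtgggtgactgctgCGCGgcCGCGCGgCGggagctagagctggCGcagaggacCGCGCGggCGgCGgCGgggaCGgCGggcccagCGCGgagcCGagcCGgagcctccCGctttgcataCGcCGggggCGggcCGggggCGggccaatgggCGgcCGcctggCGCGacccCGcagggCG
Hoxd13, chr2:74667975-74668224, strand +: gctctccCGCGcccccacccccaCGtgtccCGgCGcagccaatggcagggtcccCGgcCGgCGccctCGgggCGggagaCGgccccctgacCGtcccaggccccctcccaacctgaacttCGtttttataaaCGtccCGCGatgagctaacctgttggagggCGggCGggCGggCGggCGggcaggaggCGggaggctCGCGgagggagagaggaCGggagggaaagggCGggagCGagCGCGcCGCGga
Hoxd4, chr2:74721728-74721977, strand +: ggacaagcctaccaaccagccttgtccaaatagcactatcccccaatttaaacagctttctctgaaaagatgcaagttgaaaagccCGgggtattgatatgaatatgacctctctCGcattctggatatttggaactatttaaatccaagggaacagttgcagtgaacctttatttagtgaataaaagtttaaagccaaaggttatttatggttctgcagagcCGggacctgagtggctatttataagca

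The count was 3 CG in the Hoxa9 window, 14 in Hoxb4 and 6 in Hoxd8, but 35 in Hoxa13 and 31 in Hoxd13. Hoxd4, without signal, had 3. Over the 7 windows of the 6 genes with signal and a promoter entry the median was 7, with a range of 3 to 20. Over the 16 windows of the other 15 genes it was 15.5, with a range of 2 to 35, so the ranges overlap. The order was the reverse among all genes: a median of 15 CG in 11249 windows of genes above background in both arrays and of 4 in 7928 windows of the other genes. Hoxa10 and Hoxd11 have 2 windows each, with 20 and 7 and with 2 and 20. A joint HOX and PBX site, TGATNNAT on either strand, occurred in 3 of the 23 Hox windows (Hoxa2, Hoxb1 and Hoxd11) and in 7.68% of all 32851 windows. The SOX core ACAATG or ACAAAG on either strand occurred in 5 of 23, or 21.7%, and in 25.2% of all windows. No test was made, and a match of letters is not a binding site.

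**Figure D4:**
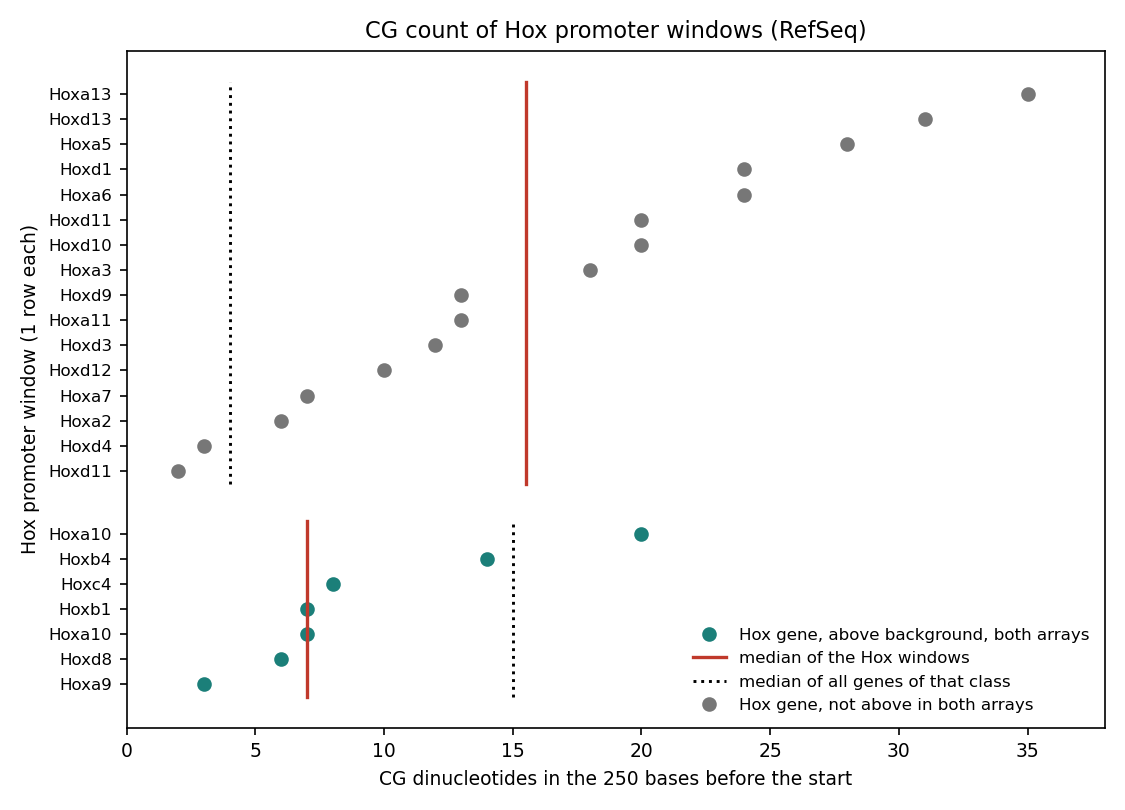
Number of CG dinucleotides in the 250 bases before the start of each Hox promoter window in RefSeq, 1 point per window, for genes above background in both arrays (lower block, 7 windows) and for those above it in neither array or, as Hoxa7, in PreASKO alone (upper block, 16 windows); the solid line is the median of the Hox windows and the dotted line that of all genes of the same class. The Hox medians are 7 and 15.5, and those of all genes 15 and 4.

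RNAs made within the clusters were mostly without signal. Of 10 measured cluster RNAs, 1 was above background in both arrays, beside 55.2% of all genes, and 8 in neither. Hottip and Hoxaas2 of Hoxa and Haglr of Hoxd lay between 3.41 and 3.69. Hoxd3os1, an antisense transcript of the Hoxd cluster between Hoxd8 and Hoxd3, was at 4.96 in floxed and 3.94 in PreASKO on its brighter probe set, and so at least 1.24-fold lower against the mark. Its other probe set was below background at 3.56 and 3.61 and is no second measure, so the lower value rests on the brighter probe set alone. Hoxd3 itself was below background (3.81 and 4.11). The microRNA genes of the clusters are shown for their shared seeds, bases 2 to 8 in capitals, from RefSeq mature sequences of GRCm38.p6.
miR-10a-5p: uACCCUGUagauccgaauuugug
miR-10b-5p: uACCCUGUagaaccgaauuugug
miR-196a-5p: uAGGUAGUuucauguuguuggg
miR-196b-5p: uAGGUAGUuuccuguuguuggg
miR-615-3p: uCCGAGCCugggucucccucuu

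The miR-10 pair shares the seed ACCCUGU and lies in Hoxb and Hoxd, and the miR-196 family shares AGGUAGU, lies in Hoxa, Hoxb and Hoxc, and is known to cleave Hoxb8 RNA. Their probe sets, which report the hairpin gene and not the mature form, were below background, with Mir10a at 2.38 and Mir10b at 2.36 in both arrays, Mir196a-2 at 3.01 in both, Mir196a-1 at 2.76 and 3.11, and Mir196b at 3.62 and 3.87. Mir615, within the Hoxc5 gene, was at 5.05 and 4.85. It was thus above background while the Hoxc5 probe set was not.

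The partners and keepers of the Hox pattern gave signal nearly throughout, beside 55.2% of all genes. None differed by 1.5-fold above background, which is near the 2.15% of all genes above background that did. All 8 measured TALE cofactors were above the mark, 5 lower and 3 higher, with a median of -0.05; Meis1, which the series' title names, was at 7.35 and 7.24, and the largest differences were Pknox1 (0.42), Pbx2 (-0.39) and Pknox2 (-0.30). Of 22 measured Polycomb genes, whose products keep Hox genes silent, 21 gave signal, 13 lower and 7 higher with a median of -0.04. Among them Ezh2, the histone H3 methyltransferase, was at 6.87 and 6.81, Suz12, its partner, at 6.99 and 6.98, and the largest differences were Phc1 (-0.40), Ring1 (0.28) and Pcgf1 (0.24). All 12 trithorax and demethylase genes, which keep Hox genes active, had signal, 6 lower and 6 higher with a median of -0.01, and Kmt2a, the methyltransferase MLL, was at 7.21 and 7.22 while Rbbp5 (-0.25), Ash2l (-0.22) and Kmt2c (0.15) differed most. The median over all genes above background was 0.02, and 44.8% of them were lower.

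Retinoic acid switches on Hox genes in the embryo. Of 12 measured genes of its synthesis, binding and receptors, 7 gave signal, near the 55.2% of all genes. These were 3 lower and 4 higher with a median of 0.05, where 44.8% of all genes above background were lower. Aldh1a3, a retinoic acid synthesis enzyme, was at 7.32 and 6.79 (-0.53), the receptor genes Rarg at 6.71 and 6.37 (-0.34) and Rara at 6.64 and 6.96 (0.32). Other positional factors of limb and trunk had signal in 14 of 23 genes, also near 55.2%, 6 lower and 8 higher with a median of 0.05. Emx2, a homeobox gene of the shoulder and urogenital system, was at 6.03 and 5.50 (-0.53), Irx3 at 5.12 and 4.79 (-0.33) and Tbx5, the forelimb factor, at 5.58 and 5.36 (-0.22). Of the hindlimb factors, Pitx1 (4.05 and 4.11) was below the mark in both arrays. Tbx4 was below it in floxed (4.40) and barely above it in PreASKO (4.6451 against a mark of 4.64463). Tcf21, a factor of visceral mesenchyme, was above it in floxed alone (4.77 and 3.87) and at least 1.09-fold lower.

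Of the relatives of the Hox genes outside the clusters or at their ends, the ParaHox and Evx genes, 1 of 8 gave signal in both arrays, beside 55.2% of all genes. It was Cdx1 (4.80 and 5.23), and Evx2, next to Hoxd13, gave signal in PreASKO alone (4.36 and 4.75). Genes near the clusters on the same chromosomes gave signal in 12 of 16 cases, beside the same 55.2%, 7 lower and 4 higher with a median of -0.04. Near Hoxc, Calcoco1 was at 6.999 and 6.49 (-0.51) and Cbx5, a heterochromatin protein gene, at 7.35 and 7.04 (-0.31), and near Hoxa, Snx10 was at 6.03 and 6.45 (0.41). Of 7 genes for geminin, CTCF and cohesin-related regulators 6 gave signal, again beside 55.2%, 4 lower and 2 higher with a median of -0.05. Rad21, a cohesin subunit, differed by -0.39, Zfp503 by -0.28 and the cohesin gene Smc3 by 0.13.

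**Figure D5:**
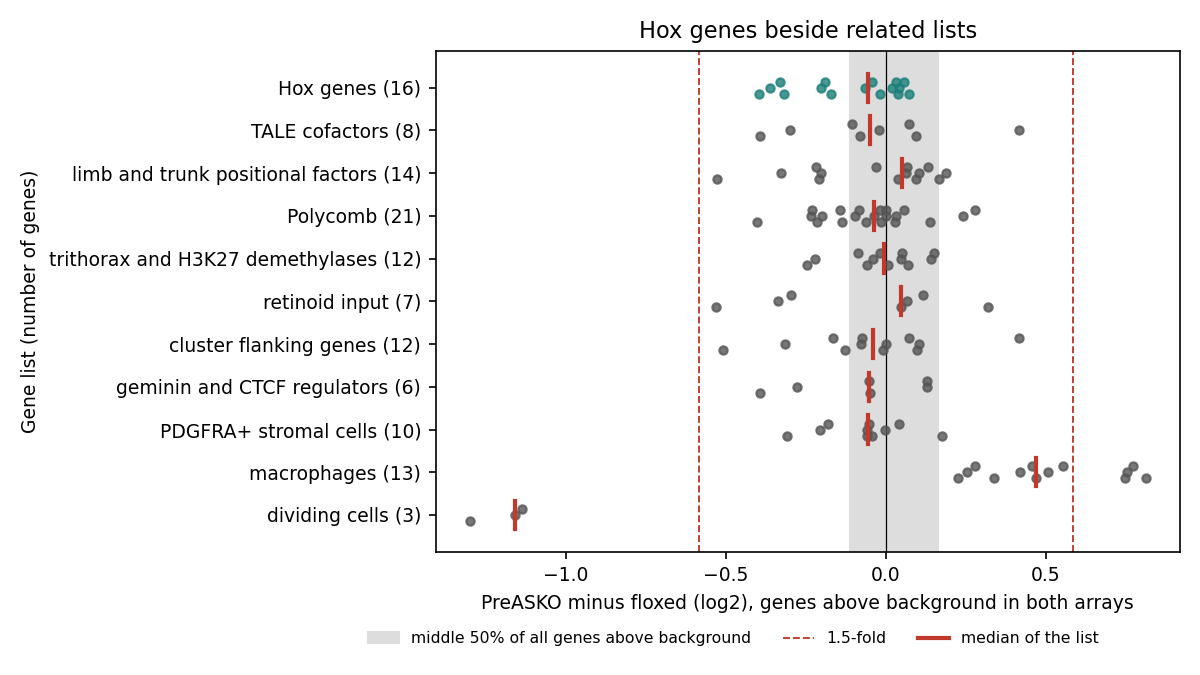
PreASKO minus floxed difference (log2) of genes above background in both arrays, 1 point per gene, for the Hox genes and for 7 related and 3 marker lists, with the median of each list as a red bar; the grey band holds the middle 50% of all genes above background and the dashed lines mark 1.5-fold. The Hox median of -0.05 is close to those of the related lists, while macrophage markers lie to the right at 0.47.

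Levels of markers of other cell types differed between the arrays beside these values. The summed level of the 13 macrophage markers was 12.98 in floxed and 13.48 in PreASKO, as log2 of the sum, and H2-Ab1 (0.81), Tyrobp (0.77), C1qa (0.75) and Cd74 (0.75) passed 1.5-fold. That of the 7 markers of dividing cells was 9.22 and 7.94. Mki67 (-1.30), Ccnb2 (-1.16) and Top2a (-1.14) had signal in both arrays. Prc1, Tpx2, Bub1b and Plk1 had it in floxed alone and were at least 2.65-fold, 1.99-fold, 1.98-fold and 1.65-fold lower. The 10 stromal markers were 8 lower and 2 higher in PreASKO, where 44.8% of all genes above background were lower. Their median was -0.06, close to the Hox median of -0.05, and they summed to 14.46 and 14.43.

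Of all genes, 55.2% gave signal in both arrays. Endothelial markers gave signal in 5 of 8 genes, 2 lower and 3 higher, with a median of 0.04, and summed to 8.99 and 8.83. Kdr, a VEGF receptor and 1 of the 2 lower genes, was at 5.55 and 4.86 (-0.69). Mural markers gave signal in 6 of 8, 4 lower and 2 higher, with a median of -0.37, and summed to 8.87 and 8.61. Among the lower ones the channel gene Kcnj8 was at 5.98 and 5.36 (-0.62). Of the epithelial markers, Krt8 (5.93 and 6.31) and Krt19 (5.78 and 6.08) gave signal, with a median of 0.34 and a sum over 8 genes of 7.66 and 7.84. The other 6, Epcam, Krt18, Krt5, Krt14, Cdh1 and Elf5, were below background in both arrays. In lymphocyte markers 3 of 7 gave signal, all higher, with Cd3e, a T cell receptor subunit, at 4.96 and 5.84 (0.88). In skeletal muscle markers 4 of 6 did, 1 lower and 3 higher, with Tnnt3, a troponin of fast muscle, at 5.35 and 6.12 (0.76). Fewer cells of a type and less RNA per cell cannot be told apart in pooled RNA, and the part of these marker levels in the Hox differences was not tested.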

How the data were processed

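Gene expression was measured on 1 array per group, each of RNA pooled from 3 mice. The authors deposited log2 values for 35556 probe sets, made with RMA per the submitters' processing notes, which corrects background, makes array distributions alike and summarises probes; the log base is taken from the values. RMA understates differences of dim genes. Of the probe sets, 21789 named 1 gene, 1621 several and 12146 none, from a platform annotation that can be old; for a gene with several, the highest mean was taken. Each Hox gene used had 1 probe set, and 37 of 37 gene identifiers matched RefSeq. The files name no genome build.

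With 1 array per group no test was made. The groups were compared by difference, against 1.5-fold and against all genes. Every Hox gene with a probe set of its own is named; from other lists, those past 1.5-fold with signal and up to 3 largest differences with signal (from cell type markers only those past 1.5-fold and Krt8 and Krt19), plus genes chosen after their values were seen (among them Ezh2, Suz12, Kmt2a, Pitx1, Tbx4, Dpt and Dcn). Members and lists were chosen with earlier results of these data known. Alternatives were quantile normalization, loess (span 0.3), centring, the mean over probe sets, a 2-fold limit, other background marks and values raised to background; each array's own percentile the counts by 25% of differences and the count of lower genes were added after seeing the data. Counting and differences were tested on simulated data. Python 3.11.15, pandas 2.3.3, numpy 2.4.6, statsmodels 0.14.6 and matplotlib 3.10.9 were used.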

Additional observations from a re-analysis of the deposited data

How the results depend on the processing

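The count of Hox genes above background followed the mark set from olfactory receptor genes: it was 16, and 8 with their 99th percentile as the mark, where 5 of the 8 were lower in PreASKO and 4 were in the lowest 25% of differences. With the vomeronasal and taste receptor mark 1 gene, Hoxa7, entered the highest 25%, where there had been 0. The count of genes at least 1.5-fold higher went from 0 to 1 with quantile normalization and to 1 with loess correction, in each case Hoxd4, which is below background. The retinoid median went from 0.05 to -0.12 with the 99th percentile mark. Of 224 alternative values, 146 were identical to the reported one, many because the alternative leaves a single gene's value as it is, and 71 moved by less than 0.1 or, for counts, within 1.5 times; the cause of the 7 shifts was not tested. Leaving out a replicate cannot be done here. No paired analysis was possible because there is 1 array per group. The number of arrays limits the precision, and signals near the mark are the least certain.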
